A study of Rattus norvegicus with 20 samples.

Results

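The lowest of the diclofenac concentrations in this series, reference concentration 1/25, was compared between 24 h and 6 h of treatment. The members were chosen by their sample titles: 3 arrays of diclofenac 1/25 at 24 h and 3 arrays of diclofenac 1/25 at 6 h, which are 6 of the 20 arrays of the series. All of them carried total RNA of neonatal rat heart cells in primary culture, labelled as cardiomyocytes, which had grown for 1 day before the drug was added. The other arrays came from diclofenac 1/5 and diclofenac 1, each with 3 arrays at 24 h and 3 at 6 h, and from 2 untreated samples. The labels give no molar value for the reference concentration, and the untreated samples carry no time. The 24 h cultures had been both treated and kept for longer than the 6 h cultures, so exposure to the drug and age of the culture cannot be told apart. Nothing in the labels makes the replicates separate animals or cultures, and a p-value here speaks of the spread among these RNA samples, possibly a technical one.

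Diclofenac is a non-steroidal anti-inflammatory drug that blocks the cyclooxygenases, the enzymes encoded by Ptgs1 and Ptgs2 that turn arachidonic acid into prostanoids. Prostanoids act on cells of the heart through their own receptors and are made by several of its cell types. Primary heart cultures usually hold fibroblasts, endothelial cells and other cells beside the beating cardiomyocytes, and the genes they express shift as the cells attach, spread and age on the dish.

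Each gene was read by a 60-base probe, and the probes behind the results on Thbd, Akr1c14, Flt1 and Pkib are shown because their genes carry the comparison across concentrations (the first 3) or gave opposite readings from 2 probes (Pkib). Letters are those of the array files, 5′ to 3′, and positions are on the rat build rn3 as the files give them. The files place them by chromosome and strand without naming exon, intron or UTR.
Thbd, chr3:137064542-137064601, minus strand: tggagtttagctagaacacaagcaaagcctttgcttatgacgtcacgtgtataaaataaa
Akr1c14, chr17:77327921-77327980, minus strand: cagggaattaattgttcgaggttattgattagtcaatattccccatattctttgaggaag
Flt1, chr12:8065567-8065626, plus strand: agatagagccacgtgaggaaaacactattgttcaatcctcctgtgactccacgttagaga
Pkib, brighter probe, chr20:36763624-36763683, plus strand: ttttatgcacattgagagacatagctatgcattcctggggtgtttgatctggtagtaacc
Pkib, other probe, chr20:36719914-36754151, plus strand: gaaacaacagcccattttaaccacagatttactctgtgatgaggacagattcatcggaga
The span given for the last probe is far longer than 60 bases, so its letters lie in separate stretches of the genome.

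Levels below are log2 processed signals with the array's 75th percentile set to 0, so a level of -3 is 3 log2 units under that percentile. The share of spots well above background was 72.4, 84.3 and 82.0% on the 24 h arrays and 83.2, 75.1 and 86.1% on the 6 h arrays (replicates 1, 2 and 3). Over these 6 arrays the first principal axis took up 66.5% of the variance over 30384 genes, and 33.0% of the axis lay between the times. On it the 24 h arrays stood at 0.96, -0.46 and 0.58, and the 6 h arrays stood at -0.66, 0.22 and -0.65. Replicate 2 of 24 h thus lay among the 6 h arrays, and replicate 2 of 6 h lay on the side of the other two 24 h arrays. Replicate 2 of 24 h correlated across genes with 6 h replicates 1 and 3 at r = 0.96 each, but with 24 h replicates 1 and 3 at 0.88 and 0.91 (genes are not independent replicates, and the arrays share probes). Replicate 2 of 6 h correlated best with replicate 3 of 24 h, at r = 0.95, against 0.93 and 0.92 with replicates 1 and 3 of its own group. On this measure both arrays went against their time labels, and a change of labels between them, which would alter every difference given here, was not tested. The 6 arrays also stood on axis 1 in the order of their median signal, with the dimmest array highest. That signal was 1307, 2515 and 1716 units on the 24 h arrays and 3776, 2249 and 3228 on the 6 h arrays. The part of array signal in this axis was not tested. No slide held arrays of both times, so slide and time cannot be told apart. The shared scan day held all 3 arrays of 6 h but only replicate 1 of 24 h. All 11 cardiomyocyte markers on the fixed list were well above background on all 6 arrays. Their mean level, saturated spots included, was 0.28, 0.62 and 0.65 on the 24 h arrays and 0.41, 0.51 and 0.58 on the 6 h arrays.

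**Figure D1:**
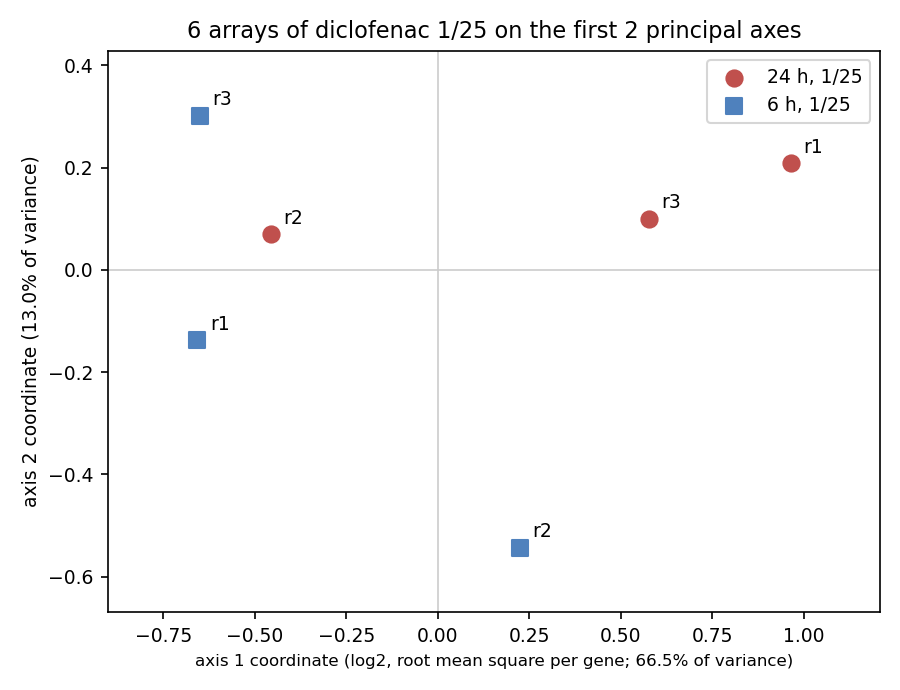
The 6 arrays of diclofenac 1/25 on the first and second principal axes (log2 units per gene; axis 1 holds 66.5% and axis 2 holds 13.0% of the variance), with circles for 24 h, squares for 6 h and r1 to r3 for the replicates. Replicate 2 of 24 h at -0.46 on axis 1 lies beside 6 h replicates 1 and 3, away from 24 h replicates 1 and 3 at 0.96 and 0.58.

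The brightest spots reached the ceiling of the scanner, and their scaled levels depend on the 75th percentile of the array. That percentile was 10726, 13103 and 12536 signal units on the 24 h arrays and 18406, 15475 and 14579 on the 6 h arrays, a mean difference of -0.41 on the log2 scale. The 1975 genes saturated on all 6 arrays had a median difference of 0.40 (24 h minus 6 h), and 62.9% of them had no overlap between the groups. They include Actc1, Nppb, Atp2a2, Gja1, Col1a1, Egr1, Ccn1, Mdm2 and Hmgcs1, for which no fold is given. Among the 25730 genes with no saturated spot the median difference was -0.13. Counts and medians of gene groups below therefore cover members with no saturated spot.

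No gene passed the test of 24 h against 6 h at 1/25. Of 30482 genes, 0 (0%) had a limma adjusted p under 0.05 and 3019 (9.9%) had an unadjusted p under 0.05. The smallest adjusted p was 0.130, shared by 22 genes, and the median standard error of a difference was 0.49 on the log2 scale. Differences were above 2 (log2) in 86 genes and below -2 in 773 genes. The levels of the groups did not overlap in 1260 of 25633 genes without saturated spots that were higher at 24 h (4.92%) and in 1413 that were lower (5.51%), while over all 30384 genes with 6 values the counts were 3253 (10.7%) and 1446 (4.76%). Replicate 2 of 24 h decided this count: without it 512 genes (1.68%) passed, 100 of them higher (0.328%) and 412 lower (1.35%). Without replicate 2 of 6 h 0 genes passed by limma, and 5664 had an unadjusted p under 0.05. The estimate of spread rested also on another array, since without the third array of 1/5 at 24 h, which had 64.1% of spots well above background, 86 genes (0.282%) passed, and 43 of these were among the 512.

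Because no gene passed, the 6 genes with the smallest p in each direction whose groups did not overlap are given as values. The 6 with higher levels at 24 h encode 3 enzymes of aldehyde and steroid metabolism, an anticoagulant receptor, an adhesion receptor and a growth factor binding protein. Thbd encodes thrombomodulin, the thrombin receptor of the vessel wall that turns thrombin to the activation of protein C. Thbd had levels of 1.07, 0.83 and 1.24 at 24 h, against -0.78, -0.48 and -0.84 at 6 h. Every 24 h array lay more than 1 unit above every 6 h array, a difference of 1.74 ± 0.34 (log2, SE; adjusted p = 0.130). Igfbp3, a carrier of insulin-like growth factors, had levels of 0.13, -0.13 and -0.14 at 24 h, against -1.60, -1.22 and -2.61 at 6 h. Its difference was 1.76 ± 0.37 (SE; adjusted p = 0.158), with the 24 h arrays close together and the 6 h arrays spread. Adgrl3, which encodes the adhesion receptor latrophilin 3, had levels of -0.71, -1.11 and -0.32 at 24 h, against -3.06, -2.67 and -2.28 at 6 h, a difference of 1.96 ± 0.38 (SE; adjusted p = 0.130).

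The 3 enzymes were Aox1, Aldh1a4 and Akr1c14. Aox1, an aldehyde oxidase that also acts on drugs, had levels of 0.93, 0.32 and 0.97 at 24 h, against -0.90, -0.63 and -0.28 at 6 h, a difference of 1.35 ± 0.28 (SE; adjusted p = 0.158). Aldh1a4, an aldehyde dehydrogenase, had levels of -3.88, -4.38 and -3.78 at 24 h, against -6.27, -6.07 and -6.51 at 6 h. Akr1c14, the rat 3-alpha-hydroxysteroid dehydrogenase, had levels of -4.07, -5.30 and -4.85 at 24 h, against -8.15, -7.98 and -8.27 at 6 h. Both were well above background on all 24 h arrays and on none of the 6 h arrays, so their 6 h levels are limits. Their levels were at least 4.21-fold higher for Aldh1a4 and at least 2.61-fold higher for Akr1c14 (each bound taken from the lowest signal well above background on the 6 h arrays or the gene's own, whichever was higher), with fitted differences of 2.27 ± 0.43 and 3.39 ± 0.68 (SE; adjusted p = 0.130 and 0.137). Both belong to families with closely related copies, and cross-hybridisation between these was not tested.

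The 6 with lower levels at 24 h encode receptors and proteins of quality control, signalling and RNA turnover. Flt1 encodes a receptor for vascular endothelial growth factor. Flt1 had levels of -4.86, -3.14 and -4.59 at 24 h, against -1.24, -2.09 and -1.96 at 6 h, a difference of -2.44 ± 0.46 (SE; adjusted p = 0.130). Replicate 2 of 24 h was the nearest to the 6 h arrays but still lay below all of them. Adra2b, the alpha-2B adrenergic receptor, had levels of -1.30, -0.11 and -0.79 at 24 h, against 0.96, 0.92 and 1.09 at 6 h, a difference of -1.72 ± 0.31 (SE; adjusted p = 0.130). Os9, a lectin of the endoplasmic reticulum that helps send misfolded glycoproteins to degradation, had levels of -4.57, -3.59 and -4.41 at 24 h, against -1.92, -1.35 and -2.18 at 6 h. Its difference was -2.37 ± 0.42 (SE; adjusted p = 0.130), with no overlap of the groups.

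Rnase4, a secreted ribonuclease, had levels of -6.11, -3.50 and -4.70 at 24 h, against -2.36, -2.33 and -2.28 at 6 h, a difference of -2.45 ± 0.47 (SE; adjusted p = 0.130). The 6 h arrays lay close together while the 24 h arrays were spread over more than 2 units, and replicate 1 of 24 h was not well above background. Mettl4, a methyltransferase gene, had levels of -7.89, -6.51 and -6.79 at 24 h, against -4.64, -4.04 and -4.15 at 6 h. Pkib, which encodes an inhibitor of protein kinase A, had levels of -6.93, -6.95 and -7.75 at 24 h, against -5.30, -4.97 and -4.10 at 6 h. Neither was well above background on any 24 h array, so Mettl4 was at least 3.54-fold lower and Pkib at least 2.49-fold lower, with fitted differences of -2.79 ± 0.51 and -2.42 ± 0.47 (SE; adjusted p = 0.130 each).

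**Figure D2:**
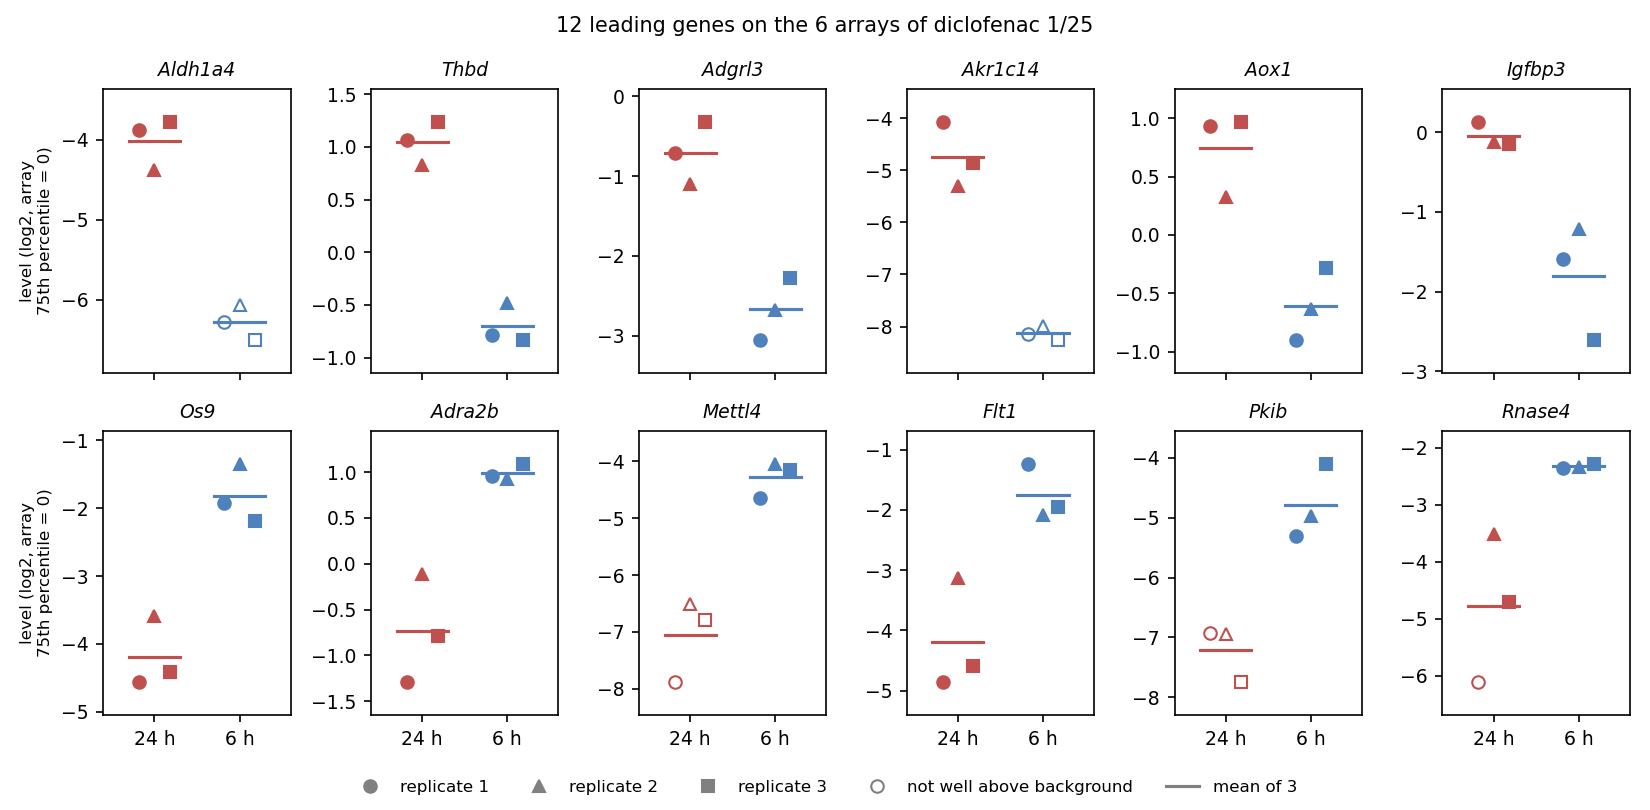
Levels of the 12 leading genes (log2, array 75th percentile at 0) on the 24 h arrays (left in each panel) and the 6 h arrays (right), with symbols for replicates 1 to 3, open symbols for spots not well above background and lines for the mean of 3. The groups do not overlap in any panel, as the choice of genes required, and replicate 2 of 24 h is the 24 h array nearest to the 6 h arrays for 10 of the 12 genes, all but Igfbp3 and Pkib.

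Other probes of these genes gave an internal comparison within the same arrays. The second probe of Flt1 differed by -2.0 ± 0.51 (SE), that of Rnase4 by -2.58 ± 0.60 and that of Igfbp3 by 1.56 ± 0.31, each with the sign of the first. The second probe of Adgrl3 differed by 0.47 ± 0.75 (SE), within its error. The second probe of Pkib went the other way. It had levels of -4.76, -5.06 and -5.41 at 24 h, against -6.28, -7.71 and -5.59 at 6 h, a difference of 1.45 ± 0.53 (SE), and it was well above background on 3 arrays of 24 h and 1 array of 6 h. The brighter Pkib probe was well above background on 0 arrays of 24 h and 3 arrays of 6 h, so no direction can be given for the gene as a whole.

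The same time difference at 1/5 and at 1 was measured on other arrays, whose levels did not enter the differences at 1/25. Their spread did enter the p by which the 12 genes were chosen, so the calls below are not independent of that choice. Some of these arrays also shared slides with those at 1/25. At 1/5 and at 1, all 6 h arrays were scanned on a single day and all 24 h arrays on a later day. No slide held both times of the same concentration. Scan day, slide and time therefore cannot be told apart in the differences at 1/5 and at 1. All 12 genes had the same sign at 1/5 and all 12 at 1. The share of all genes that kept their sign was not counted, so nothing about the 12 is read from this. Across 30481 genes the differences at 1/25 correlated with those at 1/5 at r = 0.71 and with those at 1 at r = 0.64, as a description of genes that are not independent. At 1/5, 1 of the 12 passed the test over all genes (Thbd), where 30 of 30481 genes (0.0984%) passed. At 1, 3 of the 12 passed (Thbd, Akr1c14 and Flt1), where 69 of 30482 genes (0.226%) passed. These counts over all genes rested on single arrays: leaving out 1 of the 6 arrays at 1/5 gave from 2 to 11693 genes there, the highest without replicate 2 of 24 h, and leaving out 1 of the 6 at 1 gave from 9 to 33. The count at 1 was 476 without the third array of 1/5 at 24 h, which enters only the estimate of spread.

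Thbd at 1/5 had levels of 0.66, 0.68 and 2.01 at 24 h, against -0.90, -0.51 and -1.17 at 6 h, and rose by 1.98 ± 0.34 (SE; adjusted p = 0.0368). At 1 Thbd had levels of 1.18, 0.82 and 1.03 at 24 h, against -0.83, -1.09 and -0.96 at 6 h, and rose by 1.97 ± 0.34 (SE; adjusted p = 0.0255). Its time difference was thus between 1.74 and 1.98 at all 3 concentrations, with no overlap of 24 h and 6 h arrays. Flt1 at 1 had levels of -4.11, -4.55 and -4.01 at 24 h, against -2.01, -1.65 and -1.30 at 6 h, and fell by 2.57 on the log2 scale (SE 0.46; adjusted p = 0.0311). At 1/5 Flt1 had levels of -6.13, -4.44 and -5.02 at 24 h, against -2.71, -2.94 and -2.65 at 6 h, a difference of -2.43 ± 0.46 (SE; adjusted p = 0.0535), with 1 of the 24 h spots well above background. Akr1c14 at 1 had levels of -5.66, -3.80 and -4.52 at 24 h, against -7.66, -8.26 and -8.43 at 6 h, where none of the 3 spots was well above background. It was thus at least 3.17-fold higher at 24 h, with a fitted difference of 3.46 ± 0.68 (SE; adjusted p = 0.0439). The 3 calls at 1 were lost when any 1 of the 6 arrays at 1 was left out (adjusted p from 0.0636 to 0.12 for Thbd, from 0.0623 to 0.164 for Flt1 and up to 0.254 for Akr1c14, whose lowest lay just above the threshold). The Thbd call at 1/5 held in 3 of 6 such fits (adjusted p from 0.00682 to 0.177).

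The other 9 genes differed in how their size ran over the concentrations. Adgrl3 and Aox1 had nearly the same difference at each concentration, at 1.96, 2.05 and 1.82 for Adgrl3 and at 1.35, 1.30 and 1.01 for Aox1 (1/25, 1/5 and 1). Aldh1a4, Igfbp3, Mettl4, Pkib, Rnase4 and Adra2b had their largest difference at 1/25, which is where they were selected: Mettl4 stood at -2.79, -0.87 and -0.91, and Igfbp3 at 1.76, 0.69 and 0.56. Os9 differed by -2.37 at 1/25 and -2.06 at 1, but by -0.21 ± 0.42 (SE) at 1/5. At 1/5, 2 of the 3 Mettl4 spots and 1 of the 3 Pkib spots at 24 h were well above background, and at 1 all were. None of these 9 passed the test at 1/5 or at 1.

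**Figure D3:**
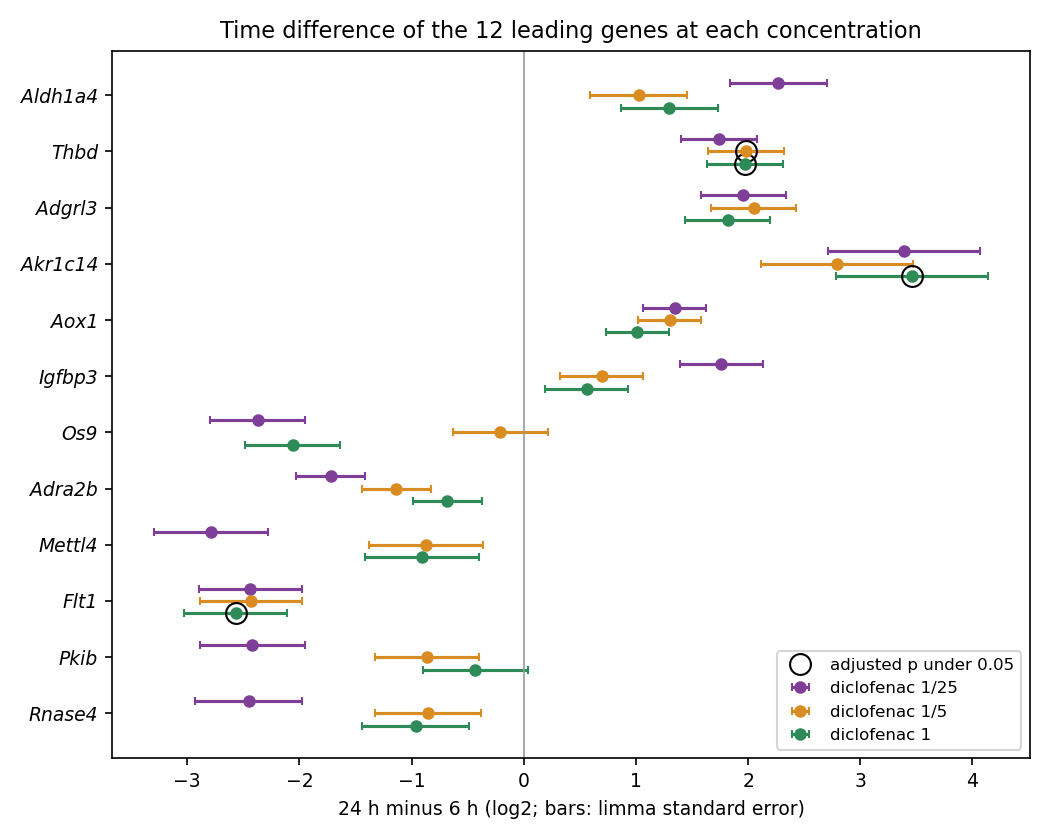
Difference between 24 h and 6 h (log2, bars give the limma standard error) of the 12 leading genes at diclofenac 1/25, 1/5 and 1, with a ring where the adjusted p was under 0.05. Thbd, Adgrl3, Akr1c14, Aox1 and Flt1 lie together at the 3 concentrations, while Igfbp3, Mettl4, Pkib and Rnase4 lie farthest from 0 at 1/25.

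Whether the time difference at 1/25 itself differed from that at a higher concentration was tested by the interaction. Scan days were laid out otherwise at 1/25 than at 1/5 and at 1, so scan day and interaction cannot be told apart. Against 1/5, 0 of 30481 genes (0%) passed and 630 (2.07%) had an unadjusted p under 0.05. Chrnb1, the beta-1 subunit of the muscle acetylcholine receptor, had the smallest p: its time difference was -0.47 ± 0.39 (SE) at 1/25 and -3.37 at 1/5, an interaction of 2.90 ± 0.56 (SE; adjusted p = 0.914). Krt19, a keratin of epithelial and mesothelial cells, differed by 1.23 at 1/25 and -0.82 at 1/5, and Eps8l3, a gene of the EPS8 family, by 1.03 and -0.84 (adjusted p = 0.914 each). Against 1, 0 of 30482 genes (0%) passed and 783 (2.57%) had an unadjusted p under 0.05. Gjb6, a connexin gene, Igtp, an interferon-induced GTPase gene, and Rhag, the Rhesus-associated glycoprotein of red cells, had the smallest p (adjusted p = 0.198, 0.198 and 0.218). None of the 3 was well above background on any of the 6 arrays at 1/25, so these interactions rest on the levels at 1.

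The gene groups were read from 32 lists of 661 genes, of which 603 were measured, and 0 of the 603 passed the test at 1/25. List medians are of log2 differences over members without a saturated spot, beside -0.13 for all such genes. Counts of members above 0 stand beside 11088 of all 25730 such genes. Scaling by the array median in place of the 75th percentile put the median of all such genes at 0.22, so a list is read by its distance from that of all genes.

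Genes of the heart muscle cell itself showed no common direction. Of 23 measured contractile and sarcomere genes, 18 had no saturated spot; 7 of these had a difference above 0 and the median was -0.13. Their groups did not overlap in 3 of the 18 that were higher at 24 h and in 1 that was lower, beside 4.92% and 5.51% of all genes without saturated spots. Myh6, the fast myosin heavy chain of the rodent heart, had levels of 0.52, -0.19 and 1.05 at 24 h, against -1.06, -0.31 and -0.68 at 6 h, a difference of 1.14 ± 0.83 (SE; adjusted p = 0.592). Myl3, a ventricular myosin light chain, had levels of 1.80, 0.88 and 1.54 at 24 h, against 0.54, 0.18 and 0.79 at 6 h, a difference of 0.90 ± 0.34 (SE; adjusted p = 0.446). Mybpc3, the cardiac myosin-binding protein C, had levels of -4.07, 0.36 and -2.68 at 24 h, against 0.57, -0.06 and 0.37 at 6 h. Replicate 2 of 24 h matched the 6 h arrays for Mybpc3 while the other two were far below, which left a difference of -2.42 ± 1.24 (SE; adjusted p = 0.516).

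Calcium handling genes had a median of -0.13 over 11 members and ion channel and connexin genes a median of -0.15 over 17 members. Ryr2, the calcium release channel, had levels of -2.55, -1.40 and -1.75 at 24 h, against -0.69, -2.55 and -1.29 at 6 h, so the groups overlapped. Pln, phospholamban, which restrains the calcium pump, had 1 saturated array and levels of 2.32, 2.25 and 2.37 at 24 h, against 1.90, 2.00 and 1.78 at 6 h, a difference of 0.42 ± 0.34 (SE; adjusted p = 0.610). Cardiac stress and fetal genes had a median of -0.46 over 9 members. Nppa, the atrial natriuretic peptide, had levels of -1.09, 0.99 and 0.72 at 24 h, against 0.19, 0.68 and 0.48 at 6 h, a difference of -0.24 ± 0.76 (SE; adjusted p = 0.892). Cardiac transcription factors had a median of -0.42 over 9 members, with Nkx2-5 at -3.77, -3.79 and -4.46 at 24 h, against -4.55, -4.40 and -4.46 at 6 h.

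Markers of the other cells of a heart culture were present throughout. Of 22 fibroblast and extracellular matrix genes, 21 were well above background on all 6 arrays. The mean level over all 22, saturated spots included, was -0.46, 0.16 and -0.32 on the 24 h arrays and 0.21, -0.06 and 0.04 on the 6 h arrays. In bulk cultures, fewer cells of a type and less RNA per cell cannot be told apart. Postn, periostin, a matrix protein of activated fibroblasts, had levels of -2.74, 0.19 and -0.60 at 24 h, against 1.66, 1.05 and 1.28 at 6 h, a difference of -2.38 ± 0.79 (SE; adjusted p = 0.416). Col5a1, a collagen V chain, had levels of -0.87, 0.49 and -1.57 at 24 h, against 1.99, 0.52 and 0.87 at 6 h, a fitted difference of -1.77 ± 0.53 (SE; adjusted p = 0.377). Its spot was saturated on 1 of the 6 h arrays, so that level is a lower limit and the gene is not among the unsaturated members counted here, while its second probe, with no saturated spot, differed by -1.17 ± 0.56 (SE). Both were lower on every 24 h array, though for Col5a1 the margin between replicate 2 of 24 h and replicate 2 of 6 h was small. Col3a1 had levels of 0.63, 0.89 and 0.98 at 24 h, against 1.20, 0.87 and 0.67 at 6 h, a difference of -0.08 ± 0.71 (SE). Of the 12 members without a saturated spot, 3 had a difference above 0, beside 11088 of all 25730 such genes. The median of the 12 was -0.20, beside -0.13 for all such genes.

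Endothelial markers, the list to which Thbd and Flt1 belong, had a median of -0.23 over 12 members without a saturated spot. Of 13 measured, 10 were well above background on all 6 arrays. The mean level over all 13, saturated spots included, was -3.64, -3.33 and -3.56 on the 24 h arrays and -3.49, -4.12 and -3.08 on the 6 h arrays. Pecam1 and Cdh5, defining adhesion proteins of endothelium, differed by -0.17 ± 0.68 and -0.44 ± 0.47 (SE). Vwf, the von Willebrand factor, had levels of -3.88, -4.66 and -4.59 at 24 h, against -6.46, -7.63 and -5.06 at 6 h, a difference of 2.01 ± 0.64 (SE; adjusted p = 0.402), and 2 of its 6 h arrays were not well above background. The second Vwf probe differed by 0.55 ± 0.60 (SE), within its error. Thbd and Vwf thus lay higher at 24 h and Flt1 lower, while the part that the amount of endothelium plays in these values was not tested.

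The remaining cell types were read from 5 further lists. Smooth muscle genes had a median of 0.06 over 7 members, and Myh11, the smooth muscle myosin heavy chain, had levels of -4.14, -2.68 and -3.89 at 24 h, against -2.31, -1.56 and -1.87 at 6 h, a difference of -1.66 ± 0.53 (SE; adjusted p = 0.401), while its second probe differed by -0.59 ± 0.86. Leukocyte and macrophage genes had a median of 0.20 over 17 members, with 11 above 0. C1qa, a complement component made by macrophages, had levels of -4.28, -0.71 and -3.00 at 24 h, against 0.26, -1.34 and -0.41 at 6 h, a difference of -2.17 ± 0.77 (SE; adjusted p = 0.437), and its second probe by -1.37 ± 0.79. Ptprc and Cd68, markers of leukocytes and macrophages, differed by 0.57 ± 0.37 and 0.71 ± 0.44 (SE), but the second probe of Ptprc differed by -0.84 ± 0.51. Erythroid genes had a median of -0.23 over 9 members, mesothelial and epithelial genes 0.04 over 10, and Schwann cell and neuron genes -0.14 over 10. Krt7, a keratin of simple epithelia, had levels of -4.56, -5.52 and -3.45 at 24 h, against -2.28, -1.65 and -3.11 at 6 h, a difference of -2.16 ± 0.66 (SE; adjusted p = 0.377).

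Prostanoid genes are those nearest to the drug's target. Of 18 measured members, 17 had no saturated spot; their median was -0.38, 6 were above 0, and the groups did not overlap in 1 higher and 1 lower member, near the 4.92% and 5.51% of all genes without saturated spots. Ptgs2, the inducible cyclooxygenase, had levels of -4.19, -2.98 and -3.37 at 24 h, against -2.21, -1.83 and -2.11 at 6 h. It was lower on every 24 h array, by -1.47 ± 0.61 (SE; adjusted p = 0.475), and its difference was -2.18 at 1/5 and -0.66 at 1. Ptgs1, the constitutive cyclooxygenase, had levels of 1.08, 1.62 and 1.37 at 24 h, against 1.74, 1.89 and 1.58 at 6 h, a difference of -0.38 ± 0.57 (SE; adjusted p = 0.751). Ptges, a prostaglandin E synthase, had levels of -2.56, -2.16 and -2.22 at 24 h, against -1.87, -3.06 and -1.91 at 6 h, with a difference of -0.03 ± 0.31 (SE).

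Genes of inflammatory cytokines and NF-kB targets had a median of -0.09 over 18 members, with no member whose groups did not overlap. Nfkbia, the inhibitor that NF-kB itself induces, differed by -0.32 ± 0.39 (SE), and Ccl2, a monocyte chemokine, by -0.46 ± 0.82 (SE). Interferon-stimulated genes had a median of -0.30 over 18 members but held values of both signs. Ifit1, an antiviral effector, had levels of 1.76, 0.42 and 1.78 at 24 h, against -0.44, 0.76 and -0.20 at 6 h, a difference of 1.28 ± 0.41 (SE; adjusted p = 0.406). Gbp2, an interferon-induced GTPase, had levels of -2.95, -1.92 and -2.34 at 24 h, against -1.44, -1.53 and -1.50 at 6 h, a difference of -0.91 ± 0.33 (SE; adjusted p = 0.437).

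Targets of TGF-beta and YAP, the growth factor and the stretch-sensed coactivator behind matrix programmes, had the lowest list median at -0.83 over 10 members, with 3 above 0. Relative to all genes it stood at -0.70, and under the 4 other scalings this ran from -0.70 to -0.62. Without replicate 2 of 24 h it stood at -0.46, and the NRF2 list at -0.64 and the cardiac stress list at -0.52 were then lower, so the place of the list rested on that array. Tgfb1 had levels of -1.20, -3.34 and -2.35 at 24 h, against -0.02, -2.47 and -1.76 at 6 h, so the groups overlapped. On single arrays the list's median deviation was -0.42, 0.03 and -0.17 at 24 h, against 0.89, -0.53 and 0.31 at 6 h, and replicate 1 of 6 h stood above the rest. Endothelin, angiotensin and adrenergic genes had a median of -0.48 over 14 members, and Edn1, endothelin 1, differed by -1.26 ± 0.85 (SE; adjusted p = 0.571).

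Cell cycle and DNA replication genes had a median of -0.43 over 28 members, with 9 above 0. Mcm3, a subunit of the replicative helicase, had levels of -4.05, -1.21 and -3.16 at 24 h, against -0.15, -1.15 and -1.23 at 6 h, a difference of -1.96 ± 0.59 (SE; adjusted p = 0.377). The second Mcm3 probe differed by -0.84 ± 0.65 (SE), with all 6 spots of both probes well above background. Mki67, a marker of cycling cells, had levels of -3.60, -4.42 and -3.26 at 24 h, against -3.26, -4.50 and -4.05 at 6 h, a difference of 0.18 ± 0.38 (SE; adjusted p = 0.830). The list thus held members on both sides. Immediate early genes had a median of -0.31 over 16 members, and circadian clock genes -0.07 over 17, with Bmal1, the activator of the clock, at -0.08 ± 0.27 (SE).

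Stress response lists lay below the median of all genes, apart from heat shock. NRF2 oxidative stress genes had a median of -0.63 over 18 members without a saturated spot, with 5 above 0. Over all 26 measured NRF2 members the median was 0.07 with 13 above 0, beside -0.01 for all genes, so the sign of this list turned on the members with saturated spots. The medians of the other 2 lists were -0.39 over 21 members for p53 target and apoptosis genes, with 6 above 0, and -0.30 over 20 members for integrated stress response and ER stress genes, with 7 above 0. Replicate 1 of 24 h was the lowest array for these 3 lists: the NRF2 list's median deviation was -0.89, 0.28 and -0.20 on the 24 h arrays, against 0.20, 0.06 and 0.56 on the 6 h arrays. Nqo1, a quinone reductase that NRF2 induces, had levels of -6.05, -3.20 and -4.40 at 24 h, against -1.69, -3.65 and -2.21 at 6 h, a difference of -2.03 ± 1.02 (SE; adjusted p = 0.512). Hspa5, the main chaperone of the endoplasmic reticulum, had levels of 0.35, -1.05 and 0.24 at 24 h, against -1.52, -0.60 and -1.94 at 6 h, a difference of 1.2 ± 0.55 (SE; adjusted p = 0.498). Ddit3, the stress-induced factor CHOP, differed by -0.39 ± 0.56 (SE). Heat shock genes had a median of 0.13 over 12 members, with Hspb1, the small heat shock protein 27, at 0.95 ± 0.70 (SE).

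Ribosomal and respiratory chain genes had the highest list medians with the array 75th percentile set to 0. Under the 4 other scalings the ribosomal list, relative to all genes, stood between 0.54 and 0.86 and stayed the highest, while the respiratory list stood between 0.16 and 0.48 and under quantile normalization lay below the leukocyte list at 0.41. The difference ran with brightness over all genes: its median was -0.36 in the dimmest 25% of genes and 0.37 in the brightest 25%, but 0.08 and 0.02 under quantile normalization. So did the share of genes higher at 24 h with no overlap, at 3.07% in the dimmest 25% and 29.6% in the brightest 25%, saturated genes included. Of the ribosomal members without a saturated spot, 5 of 11 were in the brightest 25%, as were 10 of 19 respiratory members and 11.4% of all such genes. The median of these 5 was 0.79 and of these 10 was 0.48, beside 0.28 for all unsaturated genes of that brightness. The part of brightness in the list medians, and in the counts without overlap below, was not tested further. The shares set beside those counts cover genes of every brightness. Cytosolic ribosomal protein genes had a median of 0.73 over the 11 of 26 members without a saturated spot, 8 of them above 0, and the groups did not overlap in 4, all higher at 24 h, beside 4.92% of all genes without saturated spots. Rpl5 had levels of 1.67, 0.01 and 1.04 at 24 h, against -0.58, -0.02 and -0.93 at 6 h, a difference of 1.41 ± 0.54 (SE; adjusted p = 0.448). Its other probes differed by 1.35 ± 0.52 and by -0.97 ± 0.84 (SE). Rplp0 went the other way, at -7.83, 0.58 and -5.94 at 24 h, against 0.91, -1.29 and -0.14 at 6 h, so replicate 2 of 24 h lay among the 6 h arrays and the difference was -4.22 ± 1.88 (SE; adjusted p = 0.496). Oxidative phosphorylation genes had a median of 0.35 over 19 members, with 12 above 0 and groups that did not overlap in 5 higher and 1 lower member, beside 4.92% and 5.51% of all genes without saturated spots. Ndufv1, a subunit of complex I, was that lower member at -2.89, -0.56 and -1.19 at 24 h, against -0.36, 0.15 and -0.47 at 6 h, a difference of -1.32 ± 0.50 (SE; adjusted p = 0.446). Proteasome subunit genes had a median of 0.21 over 16 members with 12 above 0. Relative to all genes, the ribosomal list stood at 0.86, 0.94 and -0.04 and the respiratory list at 0.48, 0.96 and 0.16 (1/25, 1/5 and 1), so both lists stood as high at 1/5 as at 1/25 or higher (the difference between the concentrations was not tested).

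Other metabolic lists lay closer to all genes. Hypoxia and glycolysis genes had a median of -0.39 over 18 members. Ldha, lactate dehydrogenase A, had levels of -7.52, -1.99 and -4.46 at 24 h, against -0.21, -1.48 and -1.75 at 6 h, a difference of -3.51 ± 1.06 (SE; adjusted p = 0.377). Hk2, the inducible hexokinase, had levels of -5.35, -4.40 and -3.86 at 24 h, against -3.25, -3.52 and -3.42 at 6 h, a difference of -1.14 ± 0.39 (SE; adjusted p = 0.419). Both were lower on every 24 h array, while Vegfa overlapped with a difference of -0.61 ± 0.71 (SE). Fatty acid oxidation and PPAR target genes had a median of -0.02 over 21 members, and Cpt1b, the muscle enzyme that admits fatty acids to mitochondria, had levels of 1.98, 1.31 and 2.22 at 24 h, against 0.83, 1.43 and 0.73 at 6 h, a difference of 0.84 ± 0.45 (SE), beside -1.04 ± 1.10 from its second probe. Cholesterol biosynthesis genes had a median of -0.21 over 17 members, autophagy and lysosome genes -0.21 over 15, and drug metabolism and transport genes -0.23 over 16. Cyp1a1, the inducible cytochrome of the aryl hydrocarbon receptor, had levels of -3.83, -5.46 and -1.96 at 24 h, against -2.02, -0.70 and -1.77 at 6 h, a difference of -2.25 ± 1.17 (SE; adjusted p = 0.518).

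**Figure D4:**
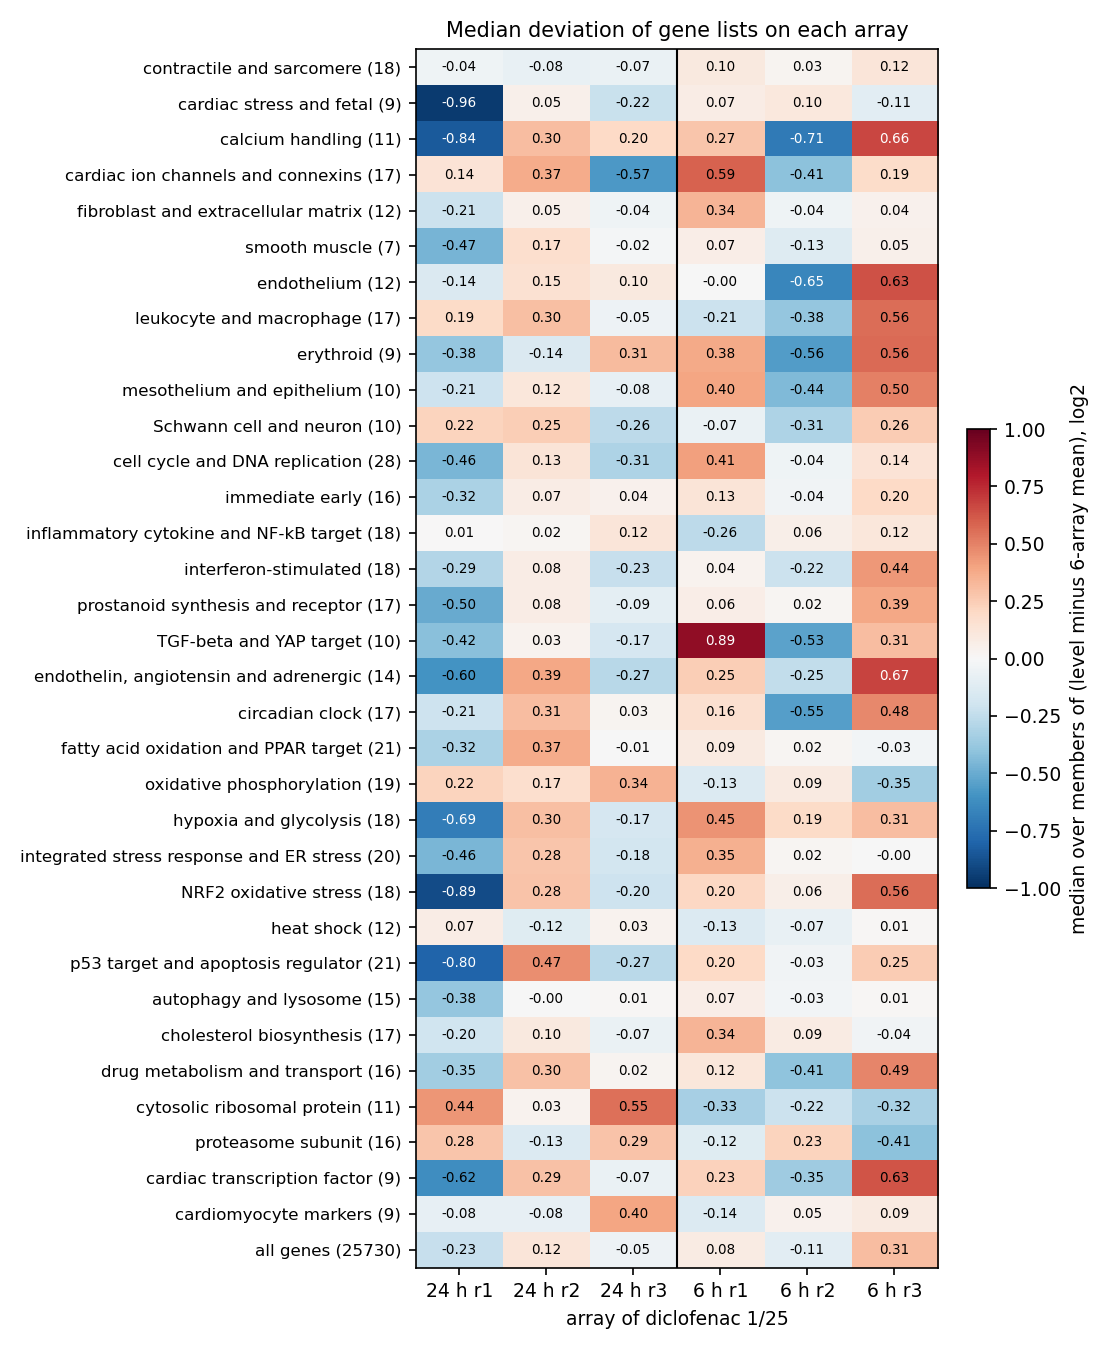
Median over the members of each gene list of the level on an array minus the mean of the 6 arrays (log2), for members with no saturated spot (their number in brackets), with the 24 h arrays on the left and the 6 h arrays on the right. Replicate 1 of 24 h has its lowest values for cardiac stress (-0.96), NRF2 (-0.89), calcium handling (-0.84) and p53 (-0.80) genes, while replicate 2 of 24 h is above 0 for most lists.

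Without replicate 2 of 24 h, 11 of the 603 measured list genes (1.82%) passed the test, near the 1.68% of all genes, and 9 of the 11 were lower at 24 h. Among the 9 were Ldha at -4.84 ± 0.97, Mcm3 at -2.76 ± 0.51, C1qa at -3.14 ± 0.70, Flt1 at -2.97 ± 0.43, Klf2 at -1.72 ± 0.42 and Col5a1 at -2.34 ± 0.52 (log2, SE), where Ldha was well above background on 1 of the 2 remaining 24 h arrays and Col5a1 was saturated on 1 of the 6 h arrays. Mcm6, a further helicase subunit, and Kif11, a mitotic kinesin, were well above background on neither remaining 24 h array, so they were at least 4.18-fold and at least 2.2-fold lower, and the second Kif11 probe differed by -0.56 ± 0.75 over all 6 arrays (SE). Thbd at 1.85 ± 0.38 and Ifit1 at 1.73 ± 0.40 were higher (SE; limma adjusted p from 0.0236 to 0.0496 over the 11). Without the third array of 1/5 at 24 h, the list genes that passed were Thbd and Flt1. All 12 leading genes passed in each of these fits, but they were chosen by the smallest p and no overlap on these same arrays, so this is no separate test of them. The number of arrays, 3 against 3 or 2 against 3, limits the precision of all these values.

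**Figure D5:**
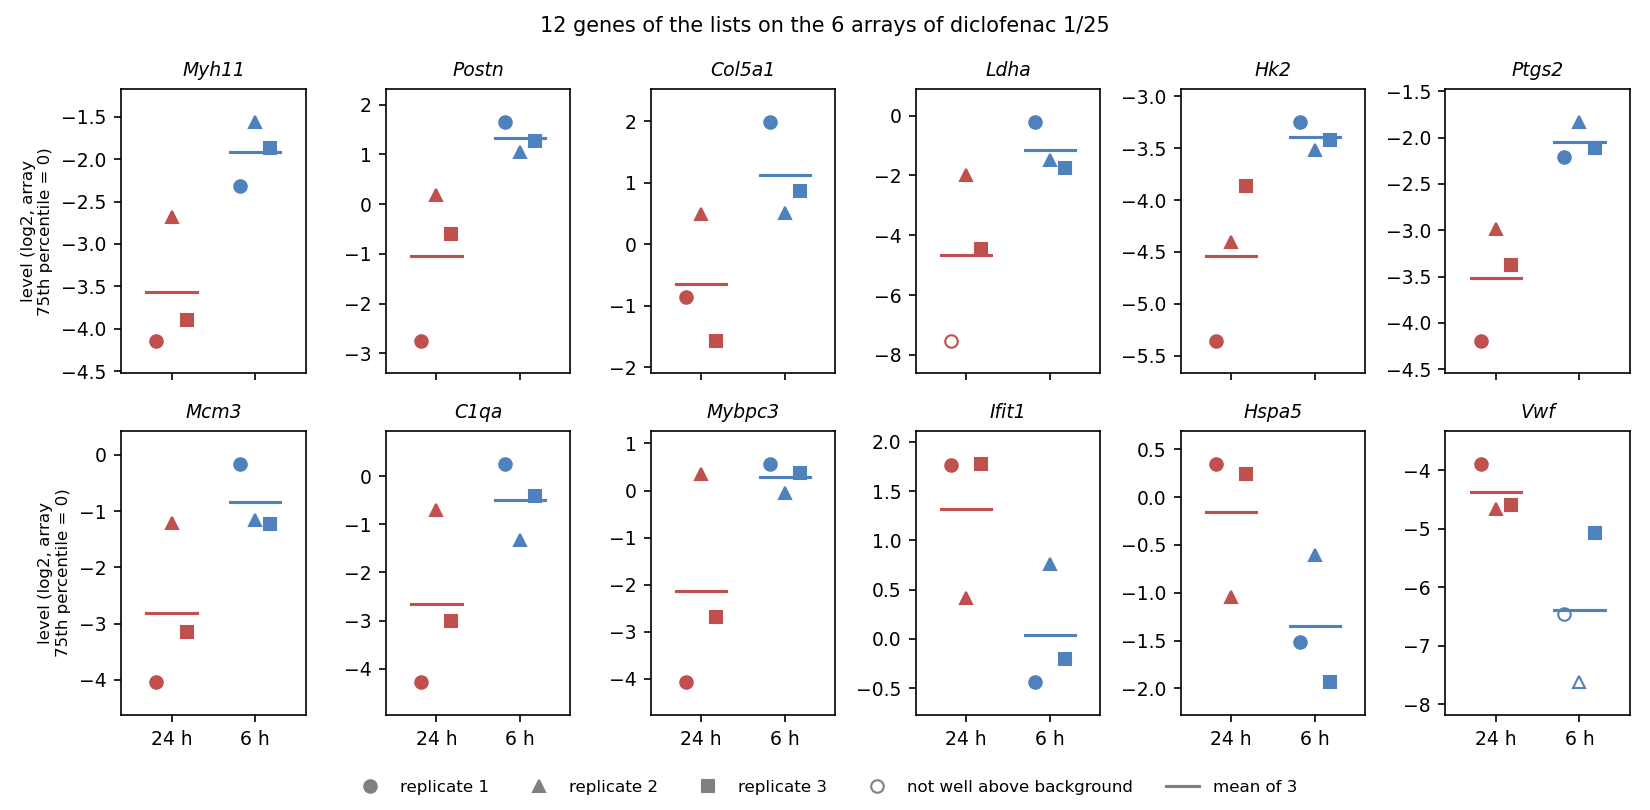
Levels of 12 list genes (log2, array 75th percentile at 0), chosen after their values were seen to show how single arrays behave, on the 24 h arrays (left in each panel) and the 6 h arrays (right), with symbols for replicates 1 to 3, open symbols for spots not well above background and lines for the mean of 3. For Mcm3, C1qa, Mybpc3, Ifit1 and Hspa5 replicate 2 of 24 h lies within the range of the 6 h arrays; Mybpc3 at 24 h reads -4.07, 0.36 and -2.68.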

How the data were processed

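Scanner output of 20 1-colour arrays was used, of which 6 are compared. Per the file headers, the authors' intensity values came from Agilent Feature Extraction 9.5.3.1, background-subtracted and not scaled between arrays. The authors' deposited table holds a ratio: for 94.7% of its values it was the processed signal over the array median over the mean of the untreated arrays, within 0.01 on the log2 scale, and it served as an alternative. Log2 processed signals of non-control spots were set relative to the array's 75th percentile. Outlier spots were left out and saturated spots kept. Probes had to be well above background on all arrays of some group (35067 of 41012 were). A gene was read from its brightest such probe by mean level over all 20 arrays (30482 genes, 3719 with several). Symbols were updated from a RefSeq table of assembly GRCr8 (10735 probes by accession, 5571 by symbol, 3729 by synonym, 1217 by gene ID), and 19760 kept the name in their file.

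Groups were fitted with limma 3.58.1 (R 4.3.3) as 7 means over all 20 arrays, two-sided, Benjamini-Hochberg over all genes, threshold 0.05. The fit was tested on simulated data, with noise independent between genes and of equal spread on all arrays. That test therefore does not cover the shared axis or the dim arrays of these data. Named genes were the 12 highest and 12 lowest among those past the threshold, filled to 6 per direction by the smallest p where groups did not overlap, the 3 smallest p of each interaction, and core members plus the 2 smallest p of each list. The arrays, genes and lists were chosen with earlier results of these data known. A bound compares group means where 1 group was dim on all arrays. Values of some list genes are not reported here.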

Additional observations from a re-analysis of the deposited data

How the results depend on the processing

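With 3 arrays a group, 24 alternatives were run for the count of genes past the threshold at 1/25, which was 0 in the reported fit. Under 12 of the 18 that do not leave out a single array of these groups it stayed at 0. It was 9 with quantile normalization, 86 without the third array of 1/5 at 24 h, 31 with slide as a random block (consensus correlation -0.168), 77 with scan day as a fixed block (5 higher and 72 lower, resting in effect on replicate 1 of 24 h), 40 with the share of spots well above background as a covariate and 15704 with array quality weights. The default method for these weights did not converge and a gene-by-gene method replaced it. Leaving out 1 array of either group gave 0 to 512 genes. Within the shared scan day 0 genes passed, with replicate 1 of 24 h alone against 3 arrays. The fixed scan-day block, the fit within the shared day, the reading of lists without saturated spots and the leaving out of arrays at 1/5 and 1 were chosen after seeing the data. For the interaction with 1/5, which was 0, the count was 2 with quantile normalization and 38 with array quality weights. For the interaction with 1, also 0, it was 2 without the third array of 1/5 at 24 h, 12 with slide as a random block, 3185 with array quality weights and 1 with the covariate. The cause of these shifts was not tested. With the replicate block, 0 genes passed in each comparison; samples with the same number had deviations from their group means that correlated at -0.44, -0.63 and -0.19, so the numbers gave no sign of pairing. The 12 leading genes passed in 60 of 283 values under the alternatives and kept their sign in all, which for the leaving out of an array was fixed by their choice. Of the lists, 24 stayed on the same side of all genes under the 4 other scalings and 8 did not.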
